A study of Mus musculus with 12 samples.

Results

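The genes of the tumour necrosis factor (TNF), lymphotoxin and BAFF system were followed in spleens of naïve and proteoglycan (PG)-immunized mice of the BALB/cJ and BALB/cByJ colonies. PG immunization of BALB/c mice is a model of inflammatory arthritis, and the comparisons ask whether spleens of the colonies differ in expression, before and after immunization. The system was taken as 10 genes chosen by name: the ligands Tnf, Lta, Ltb, Tnfsf13b (BAFF) and Tnfsf13 (APRIL), and the receptors Tnfrsf1a (TNF receptor 1), Tnfrsf1b (TNF receptor 2), Tnfrsf13b (TACI), Tnfrsf13c (BAFF receptor) and Tnfrsf17 (BCMA). A probe set, the group of array oligonucleotides that measures a transcript, was taken when its annotation named exactly 1 of them. This gave 12 probe sets for 9 of the 10 genes, out of 45037 probe sets tested, and no filter on low values was applied. Tnfsf13 was annotated only on a probe set that it shares with Tnfsfm13 and Tnfsf12, which is given separately and not counted.

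RNA of female mice was hybridized to 12 whole-genome arrays in 4 groups of 3, with a separate animal for each array. Naïve BALB/cJ and naïve BALB/cByJ mice were left untreated. Immunized BALB/cJ and immunized BALB/cByJ mice had received, per the labels, a single intraperitoneal dose of cartilage PG containing 100 µg of protein with 2 mg of the adjuvant dimethyldioctadecylammonium bromide, and all spleens were taken on day 12. The labels name the strain of every mouse as BALB/c, with the colony in the sample names, and the ages are not given there. Each RNA came from a 50 mg piece of whole spleen, so that every value is an average over all cells of that piece. In addition, immunization cannot be told apart from the runs of sample numbers, which were 10 to 15 for naïve arrays and 29 to 33 or 48 to 50 for immunized arrays and are not stated to be batches.

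Each deposited value is a log2 value from which the median of the 12 arrays had been subtracted. A value of 0 therefore marks the median array, and the level of a transcript is not known, so levels cannot be compared between genes and the presence of spleen markers cannot be checked. Log2 differences below are those of BALB/cByJ relative to BALB/cJ, or of immunized relative to naïve mice, with the standard error (SE) of a limma fit. A probe set is termed called if its p, adjusted by Benjamini-Hochberg over all probe sets tested, was under 0.05.

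TNF is a proinflammatory cytokine that signals through TNF receptor 1, which most cells carry, and through TNF receptor 2, which is prominent on immune cells. Lymphotoxin α and lymphotoxin β form a membrane complex on lymphocytes that acts on the lymphotoxin β receptor of stromal cells and maintains the white pulp of the spleen, whereas lymphotoxin α alone is secreted and binds the TNF receptors. BAFF is produced by myeloid and stromal cells and keeps mature B cells alive through the BAFF receptor, while TACI and BCMA, which also bind APRIL, act in B cell regulation and plasma cell survival. Receptors of the system lead to activation of NF-κB, by a canonical route that includes RelA and by a noncanonical route that includes RelB.

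The promoter windows of the 2 genes that were called in a comparison below, Tnfrsf1a and Tnfsf13b, and of the 3 neighbouring genes Ltb, Tnf and Lta on chromosome 17, are printed first to show what stands upstream of the transcripts that were measured. They are the 250 bases before the RefSeq start in the C57BL/6J reference assembly GRCm38.p6, written 5′ to 3′ on the strand of the gene, and not the sequence of the BALB/c colonies. Capitals mark matches, on either strand, to the NF-κB consensus of 10 bases, to TATAAA or to GGGCGG.
Tnfrsf1a, chr6:125349473-125349722, plus strand: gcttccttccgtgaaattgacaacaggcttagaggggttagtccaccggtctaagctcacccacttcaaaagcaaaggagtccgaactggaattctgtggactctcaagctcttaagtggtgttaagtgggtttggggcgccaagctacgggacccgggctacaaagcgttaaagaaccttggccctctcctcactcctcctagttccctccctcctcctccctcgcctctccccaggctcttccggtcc
Tnfsf13b (first of 2 starts), chr8:10006217-10006466, plus strand: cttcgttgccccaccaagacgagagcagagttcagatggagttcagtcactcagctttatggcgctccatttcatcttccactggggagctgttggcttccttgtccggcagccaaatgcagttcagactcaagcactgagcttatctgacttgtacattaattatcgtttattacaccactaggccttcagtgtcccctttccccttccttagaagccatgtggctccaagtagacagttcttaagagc
Ltb, chr17:35194257-35194506, plus strand: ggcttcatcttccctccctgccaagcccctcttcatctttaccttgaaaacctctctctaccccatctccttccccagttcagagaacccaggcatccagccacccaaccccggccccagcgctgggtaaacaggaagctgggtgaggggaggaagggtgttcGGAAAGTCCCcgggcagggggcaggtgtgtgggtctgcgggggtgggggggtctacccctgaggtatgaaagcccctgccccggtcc
Tnf, chr17:35202008-35202257, minus strand: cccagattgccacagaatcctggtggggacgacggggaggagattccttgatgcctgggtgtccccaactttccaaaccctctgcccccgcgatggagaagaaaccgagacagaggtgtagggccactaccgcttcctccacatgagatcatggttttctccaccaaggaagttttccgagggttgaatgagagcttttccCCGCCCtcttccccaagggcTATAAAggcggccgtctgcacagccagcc
Lta, chr17:35205352-35205601, minus strand: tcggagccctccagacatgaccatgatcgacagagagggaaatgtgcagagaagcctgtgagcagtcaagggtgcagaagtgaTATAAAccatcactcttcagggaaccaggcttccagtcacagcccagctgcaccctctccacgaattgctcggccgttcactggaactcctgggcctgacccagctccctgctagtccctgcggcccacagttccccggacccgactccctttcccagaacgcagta

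Windows were found for all 10 genes, 11 in total because Tnfsf13b has 2 starts. The NF-κB consensus matched in 1 of the 11, that of Ltb, as GGAAAGTCCC beginning 87 bases before the start, compared with 3.9% of the 32851 windows of all genes. TATAAA matched in 3 windows, against 12.4% of all windows, at 29 bases before the start of Tnf, 167 before that of Lta and 114 before that of Tnfrsf17. GGGCGG matched in 5 windows, against 32.7% of all, those of Tnf, Tnfsf13, Tnfrsf1b, Tnfrsf13c and Tnfrsf17. The windows of Tnfrsf1a, Tnfsf13b and Tnfrsf13b held none of these letters. Such a match is a description of the letters alone.

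Some arrays stood apart by genes of other tissues, which was known when the analysis was planned. The median of 18 probe sets of the exocrine pancreas was 2.27 in naïve BALB/cByJ replicate 1. For 14 probe sets of pigment cells, the median of naïve BALB/cJ replicate 1 was 1.41 and that of replicate 2 was 1.48. Among the immunized arrays, it reached 1.17 for BALB/cJ (replicate 1) and 0.45 for BALB/cByJ (replicate 2). For Tnfrsf1a in naïve mice, and for counts of calls and of differences below 0, results are also given without such arrays. The other values are not. The arrays left out for high pancreatic or heat shock genes were naïve BALB/cByJ replicate 1, immunized BALB/cByJ replicate 3 and immunized BALB/cJ replicates 2 and 3. That leaves immunized BALB/cJ with replicate 1 only.

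In naïve mice, Tnfrsf1a, the main signalling receptor of TNF, was lower in spleens of BALB/cByJ mice, and it was the only one of the 12 probe sets that was called. Its values were 0.20, 0.13 and 0.14 in naïve BALB/cJ and -0.11, -0.20 and -0.25 in naïve BALB/cByJ. All 3 BALB/cJ arrays lay above the median array and all 3 BALB/cByJ arrays below it, with no overlap. The group means were 0.16 ± 0.0376 (SD, n = 3) and -0.19 ± 0.0745 (SD, n = 3), and the log2 difference was -0.34 (SE 0.0708, 95% confidence interval -0.50 to -0.19, adjusted p = 0.0207), a 1.27-fold lower value. Over all probe sets, 4.39% were called in this comparison and 1.71% were called lower. In whole spleen, fewer cells of a type and less RNA per cell cannot be told apart.

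The probe set of BAFF with the most marked difference (Tnfsf13b, 1460255_at) showed a log2 difference of similar size that did not pass the test in naïve mice. The values were 0.22, 0.23 and -0.0097 in BALB/cJ and -0.07, -0.19 and -0.34 in BALB/cByJ. Replicate 3 of BALB/cJ lay close to 0, still above the 3 BALB/cByJ arrays. The difference was -0.35 (SE 0.0957, 95% confidence interval -0.56 to -0.14, adjusted p = 0.0611). The 2 other BAFF probe sets overlapped between the colonies, with -0.11 (adjusted p = 0.685) for 1445251_at and -0.07 (adjusted p = 0.707) for 1458047_at, so the 3 probe sets of this gene shared a sign but not a size.

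The 3 receptors of BAFF and APRIL were not called in naïve mice, although their arrays did not overlap between the colonies. Tnfrsf17 (BCMA), a receptor of plasma cells, was at 0.18, -0.18 and -0.0011 in BALB/cJ and at -0.30, -0.55 and -0.21 in BALB/cByJ, a log2 difference of -0.35 (95% confidence interval -0.65 to -0.06, adjusted p = 0.177). Within each colony its arrays spread over a wide range, and the groups were separated by the distance between -0.18 and -0.21. Tnfrsf13c (BAFF receptor), the survival receptor of mature B cells, was at 0.05, 0.07 and 0.06 in BALB/cJ and at -0.05, -0.18 and -0.27 in BALB/cByJ, which gave a difference of -0.22 (95% confidence interval -0.49 to 0.04, adjusted p = 0.352). Tnfrsf13b (TACI), a receptor of activated and marginal zone B cells, was at 0.14, 0.26 and 0.11 in BALB/cJ and at -0.06, 0.08 and -0.10 in BALB/cByJ, which gave a difference of -0.20 (95% confidence interval -0.37 to -0.02, adjusted p = 0.209). For each of these receptors the 3 BALB/cJ arrays were the higher ones.

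Among the ligands of the TNF and lymphotoxin branch, Lta was at 0.13, 0.04 and 0.03 in naïve BALB/cJ and at -0.19, -0.05 and -0.17 in naïve BALB/cByJ. The arrays did not overlap, and the difference of -0.20 (95% confidence interval -0.37 to -0.03, adjusted p = 0.179) was not called. Ltb, which anchors lymphotoxin to the membrane, was at 0.03, 0.17 and 0.04 in BALB/cJ and at 0.07, -0.08 and -0.07 in BALB/cByJ, which overlapped, with a difference of -0.11 (95% confidence interval -0.27 to 0.06, adjusted p = 0.506). Tnf was at -0.03, 0.02 and 0.11 in BALB/cJ and at 0.0039, -0.17 and 0.0073 in BALB/cByJ. The arrays of Tnf also overlapped, and the confidence interval of its difference ran from -0.27 to 0.09. TNF receptor 2 (Tnfrsf1b) had differences of -0.17 (adjusted p = 0.385) and -0.09 (adjusted p = 0.821) in its 2 probe sets, and the shared probe set of Tnfsfm13, Tnfsf13 and Tnfsf12 had -0.18 (adjusted p = 0.532).

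All 12 probe sets had a log2 difference below 0 in naïve mice, compared with 52.1% of all probe sets. Their median difference was -0.18 and ranged from -0.35 to -0.07, whereas the median of all probe sets was -0.0084 and their 5th to 95th percentiles ran from -0.34 to 0.33. The groups did not overlap, with BALB/cByJ lower, in 6 of the 12, against 11.9% of all probe sets, and 5 of the 12 had an unadjusted p under 0.05 with a lower value, against 10.5%. The 12 probe sets belong to 9 genes and were measured in the same 6 arrays, so they are not independent of each other.

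**Figure D1:**
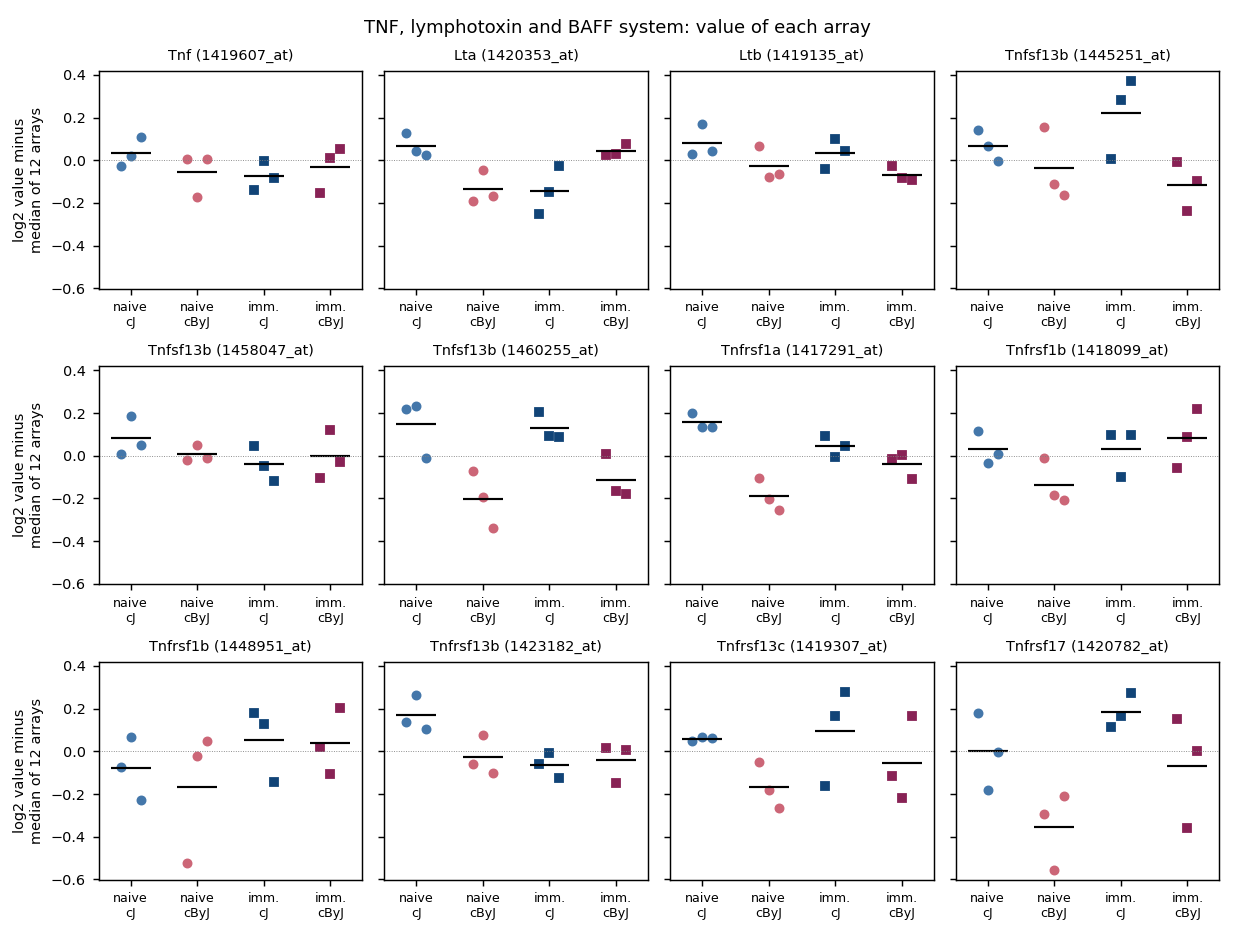
Value of each array (vertical axis, log2 value minus the median of the 12 arrays) for the 12 probe sets, with 1 panel per probe set and the 4 groups side by side on the horizontal axis (cJ, BALB/cJ; cByJ, BALB/cByJ; imm., immunized). Points are single arrays and bars are group means (n = 3); Tnfrsf1a separated the naïve colonies without overlap, and for Lta the colonies lay in opposite order in the naïve and the immunized arrays.

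Markers of several other cell types, but not of all, moved with the colonies in the same naïve arrays. For the counts of calls below, the shares over all probe sets in naïve mice were 2.68% called higher and 1.71% called lower in BALB/cByJ. The median of 27 erythroid probe sets, genes of red cell precursors, was -1.38, -1.55 and -0.33 in naïve BALB/cJ and 0.26, 0.38 and 0.72 in naïve BALB/cByJ, with 19 of the 27 called higher in BALB/cByJ and none lower. In immunized mice it was -0.15, 0.21 and -1.04 in BALB/cJ and -0.11, 0.12 and 0.51 in BALB/cByJ, with none of the 27 called. Of 21 B cell probe sets, 2 were called lower in naïve BALB/cByJ (Fcmr and Fcer2a), with array medians from 0.03 to 0.18 in BALB/cJ and from -0.12 to -0.02 in BALB/cByJ. Of 22 plasma cell probe sets, 2 were called lower (Sdc1 and Irf4), with array medians from -0.10 to 0.10 in BALB/cJ and from -0.31 to -0.20 in BALB/cByJ. Of 27 macrophage and monocyte probe sets none was called, with array medians from -0.0066 to 0.22 and from -0.42 to 0.26. None of 24 T cell probe sets was called (medians from -0.02 to 0.02 and from -0.07 to 0.02). Of 9 NK cell probe sets, 1 was called lower (Prf1), with medians from 0.03 to 0.42 and from -0.29 to 0.05. No germinal centre B cell probe set was called (medians from -0.08 to -0.00075 and from -0.32 to -0.22), and no neutrophil one (from -0.84 to 0.14 and from -0.99 to -0.54). Of 36 cell cycle probe sets, 30 were called higher in naïve BALB/cByJ and none lower (median difference 1.14), with array medians from -1.01 to -0.40 in BALB/cJ and from 0.14 to 0.51 in BALB/cByJ. Of 21 probe sets of stroma and endothelium, 3 were called lower (Stab2, Pdgfrb and Cdh5), with array medians from 0.06 to 0.29 and from -0.28 to -0.18. Of 15 dendritic cell probe sets, 3 were called lower (Cd207, Cd83 and Xcr1) and 1 higher (Siglech), with array medians from 0.06 to 0.12 and from -0.29 to -0.06. Of 12 probe sets of early induced genes, 2 were called lower (Fos and Jun), with array medians from 0.0097 to 0.11 and from -0.24 to -0.03. The part of B cells, plasma cells, T cells, NK cells, macrophages, neutrophils, dendritic cells, stroma and cycling cells in the differences of the members was not tested. With the erythroid median of each array as a covariate, Tnfrsf1a stood at -0.27 in naïve mice (SE 0.118, adjusted p = 0.744). In that fit 11 of the 12 probe sets remained below 0, and 0.0555% of all probe sets were called. The erythroid medians did not overlap between the naïve colonies, so colony and erythroid level cannot be told apart in these mice by this fit.

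**Figure D2:**
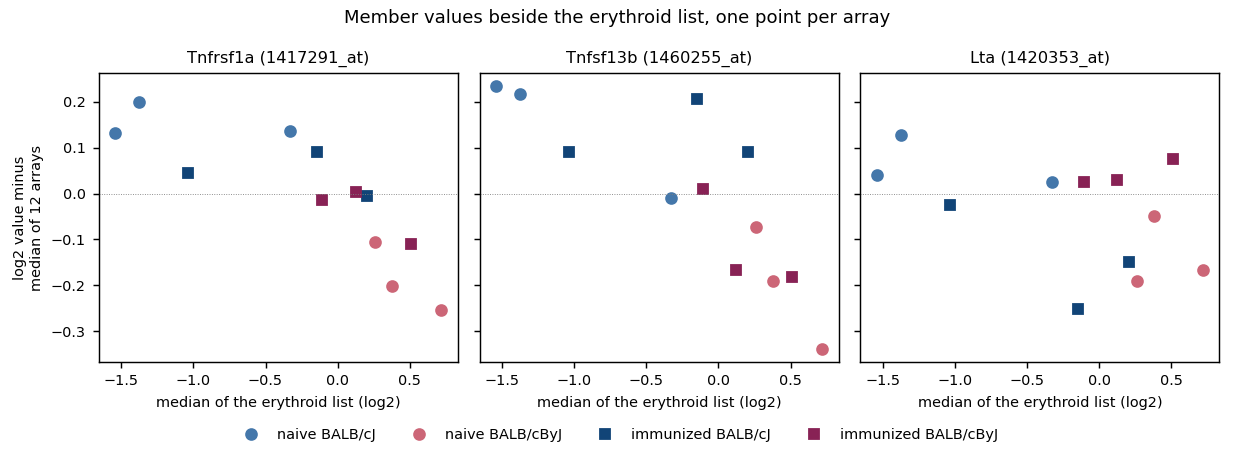
Value of Tnfrsf1a, Tnfsf13b (1460255_at) and Lta in each array (vertical axis, log2 value minus the median of the 12 arrays) against the median of the erythroid probe sets of that array (horizontal axis, log2); each point is an array of 1 of the 4 groups. The 3 naïve BALB/cByJ arrays, at erythroid medians from 0.26 to 0.72, held the lowest values of Tnfrsf1a together with immunized BALB/cByJ replicate 3, which lay at -0.11.

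The call of Tnfrsf1a in naïve mice depended on single arrays and on the fit. It was lost with only the 6 arrays compared (adjusted p = 0.0795) and with the methods' analysis of variance (adjusted p of its test over the 4 groups = 0.0974). It was also lost without naïve BALB/cJ replicate 1 (adjusted p = 0.0965) or 2 (0.0926) and without naïve BALB/cByJ replicate 2 (0.0514) or 3 (0.0913), while the log2 difference of Tnfrsf1a stayed between -0.38 and -0.27 under all 26 alternatives. Without the 4 arrays in which pigment cell genes were high, it was -0.32 (SE 0.12, adjusted p = 0.907), with 1 naïve BALB/cJ array left. Without the 4 arrays in which pancreatic or heat shock genes were high, Tnfrsf1a was still called, at -0.38 (SE 0.0795, adjusted p = 0.0235).

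On day 12 after PG immunization, none of the 12 probe sets was called between the colonies by limma, compared with 0.12% of all probe sets, and the analysis of variance of the study's methods also called 0. An unadjusted p under 0.05 was reached by 3 of the 12, against 7.92% of all. The first of them was BAFF probe set 1445251_at, at 0.0058, 0.28 and 0.37 in BALB/cJ and -0.0075, -0.24 and -0.10 in BALB/cByJ, a difference of -0.34 (95% confidence interval -0.58 to -0.09, adjusted p = 0.514). The probe set 1460255_at was at 0.21, 0.09 and 0.09 in BALB/cJ and 0.0097, -0.17 and -0.18 in BALB/cByJ, a difference of -0.24 (95% confidence interval -0.45 to -0.03, adjusted p = 0.586). In each of these BAFF probe sets every BALB/cJ array lay above every BALB/cByJ array. The BAFF probe set 1458047_at overlapped between the colonies, with a difference of 0.04 (adjusted p = 0.938).

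The remaining probe set with an unadjusted p under 0.05 was that of Lta, with the colonies in the other order. In immunized mice it was at -0.25, -0.15 and -0.03 in BALB/cJ and at 0.03, 0.03 and 0.07 in BALB/cByJ, without overlap, a difference of 0.19 (95% confidence interval 0.02 to 0.35, adjusted p = 0.597). Tnfrsf1a was at 0.09, -0.0042 and 0.05 in immunized BALB/cJ and at -0.01, 0.0042 and -0.11 in immunized BALB/cByJ, a difference of -0.08 (95% confidence interval -0.24 to 0.07, adjusted p = 0.792). These arrays of Tnfrsf1a overlapped. Those of Tnfrsf17 were at 0.12, 0.17 and 0.27 in BALB/cJ and at 0.15, -0.36 and 0.0011 in BALB/cByJ, where replicate 1 reached the BALB/cJ range, with a difference of -0.26 (95% confidence interval -0.55 to 0.04, adjusted p = 0.671).

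No other member reached an unadjusted p under 0.05 between the immunized colonies. Tnfrsf13c was at -0.16, 0.16 and 0.28 in BALB/cJ and at -0.11, -0.22 and 0.17 in BALB/cByJ, and both groups ran across 0, with a difference of -0.15 (adjusted p = 0.786). The difference was -0.10 for Ltb (adjusted p = 0.76), 0.04 for Tnf (95% confidence interval -0.14 to 0.23), 0.02 for Tnfrsf13b and 0.05 and -0.02 for the 2 probe sets of Tnfrsf1b. In total, 7 of the 12 differences were below 0, against 52.2% of all probe sets, and the median of the 12 was -0.05. The groups did not overlap with BALB/cByJ lower in 2 of the 12, against 6.88% of all, and with BALB/cByJ higher in 1, against 8.14%. The shared probe set of Tnfsfm13, Tnfsf13 and Tnfsf12 had a difference of -0.19 (adjusted p = 0.746).

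**Figure D3:**
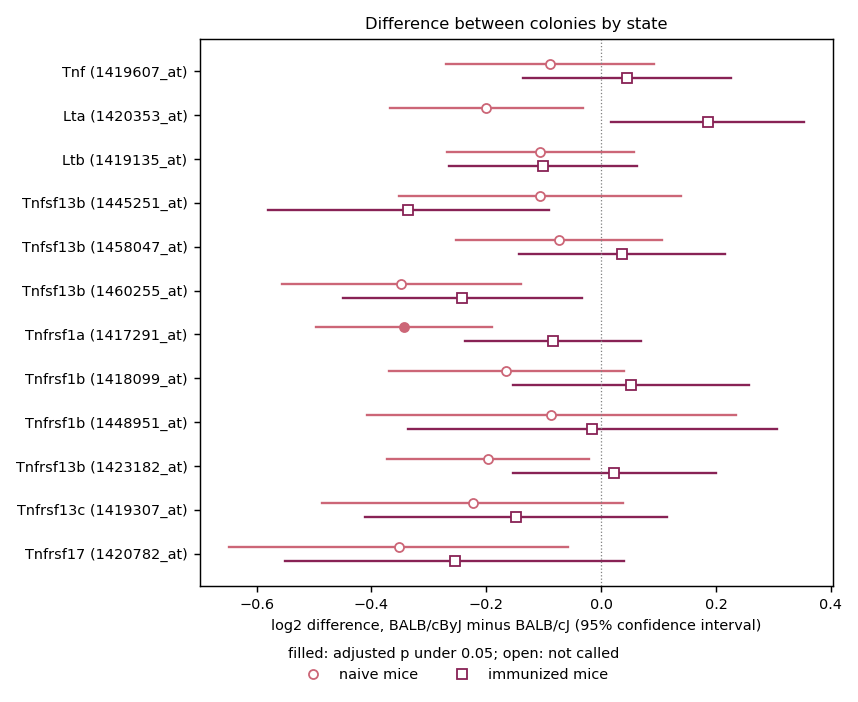
Log2 difference between the colonies (horizontal axis, BALB/cByJ minus BALB/cJ, with 95% confidence intervals as lines) for the 12 probe sets (vertical axis) in naïve mice (circles) and in immunized mice (squares). Filled symbols were called and open symbols were not; the only filled symbol is that of Tnfrsf1a in naïve mice, at -0.34, and all 12 circles lie below 0.

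When the 2 states were averaged, 2 of the 12 probe sets were called, both lower in BALB/cByJ, compared with 4.62% of all probe sets called and 1.58% called lower. BAFF (1460255_at) had a difference of -0.29 (SE 0.0677, 95% confidence interval -0.44 to -0.15, adjusted p = 0.0297), and Tnfrsf1a one of -0.21 (SE 0.0501, 95% confidence interval -0.32 to -0.10, adjusted p = 0.0323). BALB/cByJ was below BALB/cJ without overlap in each state for this BAFF probe set and in naïve mice for Tnfrsf1a. The other BAFF probe sets were not called, 1445251_at at -0.22 (adjusted p = 0.148) and 1458047_at at -0.02 (adjusted p = 0.91). The mean over the 3 BAFF probe sets was called at -0.18 (adjusted p = 0.0371). Tnfrsf17 had -0.30 (95% confidence interval -0.51 to -0.10, adjusted p = 0.0995) and Tnfrsf13c had -0.19 (adjusted p = 0.263). All 12 differences were below 0, against 53% of all probe sets. Neither call held with the erythroid covariate, at -0.16 for each of Tnfsf13b (adjusted p = 0.8) and Tnfrsf1a (0.794), and leaving out naïve BALB/cJ replicate 1 or 2, naïve BALB/cByJ replicate 3, immunized BALB/cJ replicate 1 or 3, or immunized BALB/cByJ replicate 2 or 3 left 0 calls. The share of all probe sets called without each of these arrays is not given here. A loss particular to the members therefore cannot be told apart from a general one.

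With PG immunization in BALB/cJ, none of the 12 probe sets was called by limma, as were 0% of all probe sets, and the analysis of variance called 0 of the 12. An unadjusted p under 0.05 was found for 2 of the 12, both lower after immunization, against 5.16% of all probe sets. Lta had a difference of -0.21 (95% confidence interval -0.37 to -0.04, adjusted p = 0.458), with all 3 immunized arrays below 0 and all 3 naïve arrays above it. Tnfrsf13b had -0.23 (95% confidence interval -0.41 to -0.06, adjusted p = 0.434), and its 3 immunized arrays (-0.06, -0.0066 and -0.12) lay below the 3 naïve arrays. Tnfrsf1a also showed no overlap, with -0.11 (95% confidence interval -0.27 to 0.04, adjusted p = 0.666), so that 3 of the 12 were separated with lower values, against 9.51% of all probe sets.

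In BALB/cByJ, none of the 12 was called with immunization by limma, compared with 0.0511% of all probe sets, and the analysis of variance called 0. There 2 of the 12 had an unadjusted p under 0.05, both higher after immunization, against 4.63% of all. Lta had 0.18 (95% confidence interval 0.01 to 0.35, adjusted p = 0.582) without overlap, which 6.91% of all probe sets showed in that direction. The other was Tnfrsf1b, TNF receptor 2, by its probe set 1418099_at. Its arrays were at -0.0097, -0.19 and -0.21 in naïve and at -0.06, 0.09 and 0.22 in immunized BALB/cByJ, a difference of 0.22 (95% confidence interval 0.01 to 0.42, adjusted p = 0.582), and the groups overlapped through 1 array on each side. Its other probe set, 1448951_at, ranged from -0.52 to 0.05 in the naïve arrays and had a difference of 0.20 (95% confidence interval -0.12 to 0.53, adjusted p = 0.734). Tnfrsf17 had 0.28 (95% confidence interval -0.01 to 0.58, adjusted p = 0.612) and Tnfrsf1a 0.15 (95% confidence interval -0.006 to 0.30, adjusted p = 0.611).

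Over both colonies, limma called none of the 12 with immunization, against 0.0466% of all probe sets, and 1 had an unadjusted p under 0.05 with a higher value, against 5.28% of all. This was Tnfrsf17, at 0.23 (95% confidence interval 0.03 to 0.44, adjusted p = 0.462). For Tnf the difference was -0.11 (95% confidence interval -0.29 to 0.07) in BALB/cJ and 0.02 (-0.16 to 0.20) in BALB/cByJ, and for Ltb -0.05 (-0.21 to 0.12) and -0.04 (-0.20 to 0.12). The arrays of both genes overlapped between the states in each colony.

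**Figure D4:**
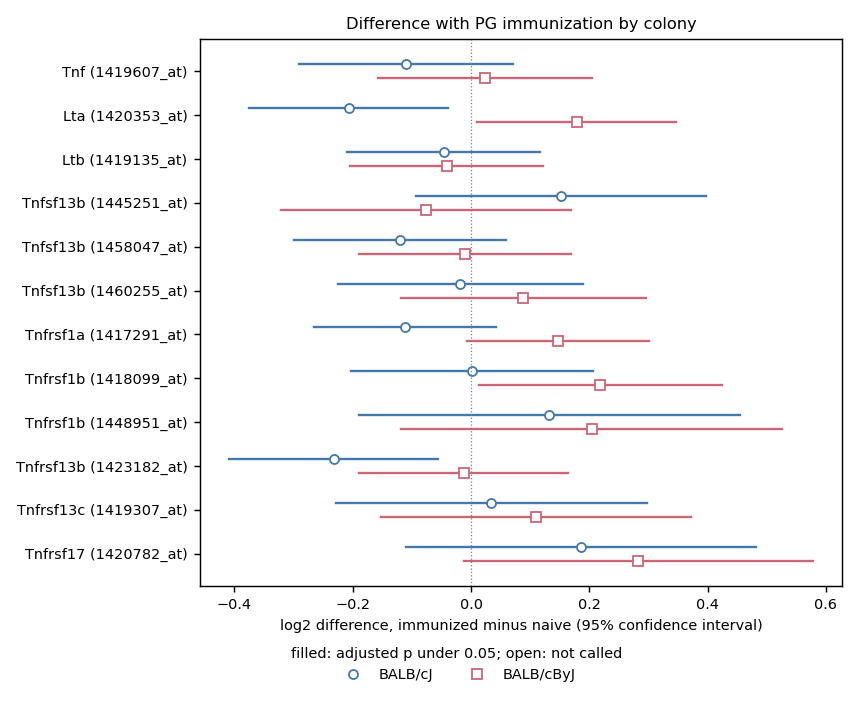
Log2 difference with PG immunization (horizontal axis, immunized minus naïve, with 95% confidence intervals as lines) for the 12 probe sets (vertical axis) in BALB/cJ (circles) and BALB/cByJ (squares). All symbols are open, as none was called; the intervals of Lta exclude 0 on opposite sides in the 2 colonies.

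The response to immunization was compared between the colonies by the interaction term. None of the 12 was called by limma, against 0% of all probe sets, and 2 had an unadjusted p under 0.05, against 7.59% of all. Lta had an interaction of 0.39 (SE 0.11, 95% confidence interval 0.15 to 0.62, adjusted p = 0.505) with an unadjusted p of 0.00402. Its naïve BALB/cJ arrays and its immunized BALB/cByJ arrays lay above 0, and the other 6 arrays lay below. The arrays of Lta did not overlap in any of the 4 comparisons of colonies or states, with the order of the colonies turned between the states. This pattern was singled out after the values were seen, and 0.275% of all probe sets showed it, 0.206% in the orientation of Lta. Among the 255 probe sets of the wider pathway described below, 2 showed it (0.784%), those of Traf1 in the orientation of Lta and of Eda in the other. Tnfrsf1a had an interaction of 0.26 (SE 0.1, 95% confidence interval 0.04 to 0.48, adjusted p = 0.588). Colony and immunization comparisons share arrays, so that these values restate those above. The moderated F-test over the 4 groups called 0 of the 12, against 1.77% of all probe sets.

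The members varied unequally within groups. The within-group SD was 0.0569 for Tnfrsf1a, 0.0689 for Ltb, 0.0747 for Lta and 0.0885 for Tnf, compared with a median of 0.129 over all probe sets. It was 0.187 for Tnfrsf17 and 0.208 for Tnfrsf1b (1448951_at). The range over the 12 arrays was narrow for Ltb (0.260) and Tnf (0.281) and widest of the 12 probe sets for Tnfrsf17 (0.828), with a median of 0.468 over all probe sets.

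The named probe sets whose values were most like those of the 2 called members over the 12 arrays were listed as a description. For Tnfrsf1a they were those of Ppic, which encodes cyclophilin C (Pearson r = 0.981), Abcc9, an ABC transporter gene (0.964), and the serpin gene Serpinb9 (0.961). For Tnfsf13b (1460255_at) they were those of the small GTPase gene Rab34 (0.972), Tmem176b (0.967) and Cst3, which encodes cystatin C (0.962). These points share the arrays and the group differences described above, including that of the erythroid list.

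Other genes of the pathway were read from 8 lists of 132 genes, of which 118 were measured by 255 probe sets. In naïve mice 13 of the 255 were called, 9 lower and 4 higher in BALB/cByJ, or 5.1% against 4.39% of all probe sets, which is near the background. An unadjusted p under 0.05 was reached by 82 of the 255 (32.2%), against 18.7% of all probe sets. The cause of this larger share was not tested. No called probe set belonged to the other ligands (10 of 13 genes measured) or to the genes of lymphotoxin-dependent spleen organisation (9 of 12). Between the naïve colonies, the median difference was -0.07 for the ligands, whose array medians overlapped. It was -0.29 for the 14 probe sets of spleen organisation. Their array medians were from 0.00036 to 0.14 in naïve BALB/cJ and from -0.34 to -0.11 in naïve BALB/cByJ. In the list of spleen organisation, the smallest p was that of Vcam1, an adhesion molecule, over both states (-0.34, adjusted p = 0.0904), and among the ligands that of Tnfsf11 (RANKL) with immunization in BALB/cByJ (0.46, adjusted p = 0.284).

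The 20 measured genes of feedback and shedding had 44 probe sets, of which 3 were called, all lower in naïve BALB/cByJ. Over all probe sets, 4.39% were called and 1.71% were called lower. Traf1, an adaptor of TNF receptor 2 that NF-κB induces, was at 0.19, 0.09 and 0.20 in BALB/cJ and at -0.19, -0.27 and -0.37 in BALB/cByJ, a difference of -0.43 (SE 0.0729, adjusted p = 0.0107) in 1 of its 2 probe sets. Nfkbie, which encodes the inhibitor IκBε, had -0.38 (SE 0.0784, adjusted p = 0.0206) in 1 of 2, and Bcl3, a nuclear IκB protein, had -0.40 (SE 0.0873, adjusted p = 0.0259). In the noncanonical list, 1 of 19 probe sets was called, that of Relb, which was lower. It was at 0.17, 0.23 and 0.21 in BALB/cJ and at -0.13, -0.15 and -0.15 in BALB/cByJ, a difference of -0.35 (SE 0.0676, adjusted p = 0.0157). The other 8 measured genes were not called. The arrays of Traf1 and Relb did not overlap in naïve mice, and in immunized mice their differences were 0.14 (adjusted p = 0.676) and 0.06 (adjusted p = 0.844). The arrays of Traf1 did not overlap between the immunized colonies or in either immunization comparison, with an interaction of 0.57 (SE 0.103, 95% confidence interval 0.34 to 0.79, adjusted p = 0.356).

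Of 28 probe sets of 17 measured NF-κB target genes of inflammation, 3 were called lower in naïve BALB/cByJ, against 1.71% of all probe sets. The neutrophil chemokine Cxcl1 had -0.69 (SE 0.117, adjusted p = 0.0109) in 1 of its 3 probe sets. The T cell chemokine Ccl5 had -0.52 (SE 0.113, adjusted p = 0.0249) and the cytokine gene Il1b had -0.71 (SE 0.148, adjusted p = 0.0217). Cxcl1 was also higher after immunization in BALB/cByJ, at -0.61, -0.92 and -0.84 in naïve and at -0.00083, 0.09 and 0.00083 in immunized arrays (difference 0.82, adjusted p = 0.0416), and over both colonies (0.68, adjusted p = 0.0115). It was the 1 call of the 255 probe sets in each of these comparisons, or 0.392%. Over all probe sets, 0.0511% were called with immunization in BALB/cByJ and 0.0466% over both colonies. Neutrophil markers moved with immunization in the same arrays: their median difference was 1.5 in BALB/cByJ, with none of 13 probe sets called, and 1.3 over both colonies, with 3 called higher (Camp, Ngp and Mpo). The array medians of these markers were from -0.99 to -0.54 in naïve and from -0.12 to 1.17 in immunized BALB/cByJ, and from -0.84 to 0.14 in naïve and from 0.48 to 0.86 in immunized BALB/cJ. Of 13 germinal centre B cell probe sets, 5 were called higher after immunization in BALB/cByJ and 4 over both colonies, and of 23 heat shock probe sets 1 was (Hspa8) in each. The part of these cells in the difference of Cxcl1 was not tested.

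Of 35 probe sets of the other receptors (20 genes measured), 1 was called lower and 1 higher in naïve BALB/cByJ. Over all probe sets the shares were 1.71% and 2.68%. The costimulatory receptor Cd40 was lower in 1 of its 3 probe sets, at -0.47 (SE 0.112, adjusted p = 0.0373). Tnfrsf14, a receptor of lymphotoxin α and LIGHT, was higher, at 0.61 (SE 0.142, adjusted p = 0.0336). Among 24 genes of TNF receptor 1 signalling, 1 of 60 probe sets was called, against 4.39% of all probe sets. This was Tab3, a subunit of the TAK1 kinase complex, at -0.34, -0.51 and -0.07 in BALB/cJ and at 0.43, 0.45 and 0.53 in BALB/cByJ. The difference was 0.78 (SE 0.137, adjusted p = 0.0114). The 15 measured genes of the BAFF survival axis had 45 probe sets, of which 2 were called higher and 1 lower in naïve BALB/cByJ. Both probe sets of the kinase gene Pim1 were higher (0.44 and 0.42, adjusted p = 0.0125 and 0.0336). Fcer2a (CD23) was lower in 1 of 2, at -0.43 (SE 0.106, adjusted p = 0.0396).

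Between the immunized colonies limma called none of the 255 probe sets. An unadjusted p under 0.05 was reached by 20 of them (7.84%), against 7.92% of all probe sets, and the analysis of variance called 1. Over both states 5 were called higher in BALB/cByJ and 2 lower, or 2.75% of the 255, against 4.62% of all probe sets. The higher ones were those of Tab3, Pim1 (both), Tnfrsf21 (0.24, adjusted p = 0.0336) and Bcl2l1 (0.48, adjusted p = 0.0369, 1 of 4 probe sets). The lower ones were those of Cxcl1 and Ccl5. In naïve mice the 13 calls, against 4.39% of all probe sets, became 0 with the erythroid covariate (0.0555% of all), 0 without naïve BALB/cJ replicate 1 (0.515%), 0 without naïve BALB/cByJ replicate 3 (0.588%), 2 without naïve BALB/cJ replicate 2 (0.357%), 25 without naïve BALB/cByJ replicate 1 (5.48%) and 0 without the 4 arrays in which pigment cell genes were high (0.0333%). All alternatives for these lists were chosen after the data were seen.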

How the data were processed

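Spleen RNA had been hybridized to Affymetrix whole-genome mouse arrays. The authors made the deposited log2 values in GeneSpring GX by robust multi-array averaging and set each probe set to its median over all samples. The log base is not stated in the sources used here and was read as 2. Because the values hold no signal level, background correction and a filter on dim probe sets were not possible, and the number of arrays limits the precision. All 12 columns were used, 64 control probe sets of 45101 were left out, and gene names came from the platform annotation.

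The limma package (version 3.58.1, R 4.3.3) estimated 4 group means over all 12 arrays and 7 contrasts, with eBayes without a trend and a moderated F-test, with Benjamini-Hochberg adjustment over 45037 probe sets and calls at an adjusted p under 0.05. The fit was tested on simulated data. Named were all probe sets of exactly 1 member, up to 4 called probe sets per pathway list and contrast by smallest p (without a call, that with the smallest p), and the 3 named probe sets most like each called member. The members, the lists and the alternatives were chosen with earlier results of these data known.

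Alternatives were quantile normalization, median centring, trended and robust variance, array weights, only the compared arrays, blocks for replicate number or run of sample numbers, probe set filters, averaging the probe sets of each gene, an erythroid covariate, leaving out arrays singly or by pigment cell or pancreatic and heat shock genes, and the one-way analysis of variance with Student-Newman-Keuls comparisons that the study's methods name. Promoter windows and gene order came from RefSeq tables of GRCm38.p6. Figures were drawn in matplotlib 3.10.9 under Python 3.11.15 from tables read by pandas 2.3.3.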

Additional observations from a re-analysis of the deposited data

How the results depend on the processing

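A sign was counted as a direction only where the unadjusted p was under 0.05 in the fit as reported. Of 2112 values of single differences under the alternatives, 39 lost or gained a call. Among those values that could count as a direction, 0 reversed. Of 1508 values of differences with a p of 0.05 or more, 105 had another sign. The averaged probe sets and the analysis of variance were left out of this count. Between the naïve colonies 1 probe set was called. The number was 2 with a trended and robust variance (4.11% of all probe sets called) and 2 with array weights (13.2%). It was 0 with only the compared arrays (2.8%), 0 with the erythroid covariate (0.0555%), 0 without the 4 arrays in which pigment cell genes were high (0.0333%; naïve BALB/cJ then has 1 array, assumed to vary like the other groups) and 0 with the analysis of variance (0.149%). Leaving out 1 array gave 0 to 2: 0 without naïve BALB/cJ replicate 1 (0.515%) or 2 (0.357%) or naïve BALB/cByJ replicate 2 (2.85%) or 3 (0.588%), and 2 without naïve BALB/cJ replicate 3 (5%) or naïve BALB/cByJ replicate 1 (5.48%). Over both states 2 were called, 3 with array weights (10.1%), 1 with quantile normalization (4.51%), and 0 with the erythroid covariate (0.104%), 0 without the pigment arrays (0.0844%) and 0 without the 4 arrays in which pancreatic or heat shock genes were high (1.95%), with 0 to 2 when 1 array was left out. The F-test called 0 of the 12, 3 with array weights (10.8%) and 1 when the probe sets of each gene were averaged (3.65% of all genes). All other comparisons called 0 throughout. Of the 255 pathway probe sets, 13 were called between the naïve colonies (5.1%, against 4.39% of all), 48 with array weights (18.8%, against 13.2%), 6 with only the compared arrays (2.35%, against 2.8%), 24 without the pancreatic and heat shock arrays (9.41%, against 6.81%) and 1 with the analysis of variance (0.392%, against 0.149%). The cause of these changes was not tested. With a replicate block, 2 probe sets were called between the naïve colonies (4.99% of all), and 3 over both states (5.14%), where Tnfrsf17 over both states was called (-0.30, adjusted p = 0.0384). The labels state no shared litter or day for a number. The deviations of same-numbered arrays correlated between -0.264 and 0.368 over 12 pairs, 6 of them over 0.1, including all 4 of replicate 1, and 6 of 12 arrays correlated best with one of their own number. Not every pair was over 0.1, so the numbers were not used as pairs. Array weights called Tnfsf13b (1445251_at) over both states (-0.27, adjusted p = 0.0277). The weights ran from 0.294 for naïve BALB/cByJ replicate 1 to 4.24 for naïve BALB/cJ replicate 2. The fit thus leaned on the latter array, in which pigment cell genes were high. All 12 differences between the naïve colonies were below 0 under each scaling, and 11 were with the erythroid covariate, without naïve BALB/cByJ replicate 1 and without either set of 4 arrays.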
